A study of Mus musculus with 12 samples.

Results

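The replication-dependent histone genes were taken as every gene whose symbol begins with Hist1h, Hist2h, Hist3h or Hist4h, the mouse names for the 4 clusters of genes that encode the core histones H2A, H2B, H3 and H4 and the linker histone H1. By this rule 62 of the 17885 genes in the table comparing control with Eed iKO hair follicle stem cells (HFSCs) were members. The table comparing anagen with telogen HFSCs lists 21915 genes and names most histones by newer symbols, so only 8 matched by symbol there. The same genes were therefore followed by Ensembl identifier, which gave 67 members in the hair cycle table, and of these 62 were the members of the Eed table. The other 5 were Hist1h2aa, Hist1h2ad, Hist1h2ba, Hist1h4m and Hist3h2ba. The Eed table held 6 H1, 16 H2A, 16 H2B, 12 H3 and 12 H4 genes, and the hair cycle table held 6 H1, 18 H2A, 18 H2B, 12 H3 and 13 H4 genes.

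HFSCs are the slow-cycling stem cells of the hair follicle bulge, which rest in telogen and divide when the follicle grows in anagen. RNA was sequenced from HFSCs sorted from C57BL/6J mouse back skin as EpCAM+, Sca1-, CD34+ cells with high integrin α6, in 12 libraries, 3 for each group. Control libraries came from animals labelled wildtype at day 70, which by the methods had ethanol, the solvent of the inducer, on the skin in its place. Libraries labelled Eed iKO came from K15-CrePGR: Eed fl/fl animals, labelled Eed -/-, at day 70, which had received 10 mg/ml RU-486 on the skin once a day for 7 days from day 50. Cre in these animals is driven by the Krt15 promoter, which is active in the bulge, and the inducer RU-486 switches it on. Anagen libraries came from wildtype animals at day 28 to 30 and telogen libraries from wildtype animals at day 50 to 52, so that hair cycle stage and age cannot be told apart.

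Histone genes of these clusters are transcribed mainly in S phase, when newly made DNA has to be packed into nucleosomes. Their mRNAs as a rule have no introns and no poly(A) tail. They end instead in a conserved stem-loop that is bound by the stem-loop binding protein SLBP, and the transcript is cut shortly after the loop. Some members also make longer, polyadenylated transcripts, which are known from cells that have stopped dividing. EED is a core subunit of the Polycomb repressive complex PRC2.

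Most members lie in the large Hist1 cluster on chromosome 13, where 50 of the 62 genes of the Eed table span positions 21715763 to 23764406 (GRCm38, GENCODE vM21). The Hist2 cluster on chromosome 3 holds 10 members between 96219865 and 96270132. Hist3h2a on chromosome 11 and Hist4h4 on chromosome 6 were the only members of the Hist3 and Hist4 clusters in that table. The stem-loop was found by its letters in an annotated transcript of 44 of the 67 members and in 51 of all 55450 genes with transcripts, or 0.0920%. These 16-base stem-loops took 6 forms. The form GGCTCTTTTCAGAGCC was held by 26 members of the H1, H2A, H2B and H3 classes. No H4 gene held it, and 7 H4 genes held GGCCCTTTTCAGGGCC. One site of each form and 2 more of named members are shown, with the stem-loop in capitals and 5 bases on either side.
Hist1h1e: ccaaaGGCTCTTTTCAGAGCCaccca
Hist1h2bf: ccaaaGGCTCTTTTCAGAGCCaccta
Hist1h2bb: ccaaaGGCTCTTTTAAGAGCCaccca
Hist3h2a: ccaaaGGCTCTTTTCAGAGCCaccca
Hist2h2ac: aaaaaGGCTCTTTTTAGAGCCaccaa
Hist1h4d: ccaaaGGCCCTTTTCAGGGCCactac
Hist2h4: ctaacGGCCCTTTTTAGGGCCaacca
Hist1h4j: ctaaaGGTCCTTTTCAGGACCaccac

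Of the 62 members, 21 had at least 1 annotated transcript that ran more than 100 bases past the stem-loop, and 20 had transcripts that all ended within 100 bases of it. The remaining 21 had no stem-loop in an annotated transcript. For some of these, such as Hist1h1a, Hist1h1b and Hist1h2bl, the gene model was little more than the coding sequence. Others had longer models with several exons, such as Hist1h2bc, Hist1h2bq and Hist1h2br. CCAAT boxes, read on both strands, occurred in the 300-base RefSeq promoter (250 bases before to 50 after the start, GRCm38.p6) of 53 of the 62 members that had one, against 37.4% of all 32851 promoters. They were found in all promoters of the H1, H2A, H2B and H3 classes and in 3 of 12 H4 promoters. TATAAA occurred in 35 promoters, or 56.5%, against 13.6% of all. The octamer ATTTGCAT, known from H2B promoters, occurred in 7 of 16 H2B and 7 of 18 H2A promoters, against 1.74% of all. AAACACA, known as the H1 box, occurred in 5 of 6 H1 promoters, against 7.18% of all. The 250 bases before the start are shown for Hist1h1b (chr13:21780626-21780875, minus strand) and Hist1h1a (chr13:23763418-23763667, plus strand), the pair past the thresholds in both comparisons, and for Hist3h2a (chr11:58954435-58954684, plus strand), an abundant member that was not. Capitals mark these motifs on either strand.
Hist1h1b: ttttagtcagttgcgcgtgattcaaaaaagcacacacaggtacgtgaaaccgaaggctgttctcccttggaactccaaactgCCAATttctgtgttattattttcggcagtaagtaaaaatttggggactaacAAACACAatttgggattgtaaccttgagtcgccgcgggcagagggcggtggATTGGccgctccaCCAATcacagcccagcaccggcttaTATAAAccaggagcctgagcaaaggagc
Hist1h1a: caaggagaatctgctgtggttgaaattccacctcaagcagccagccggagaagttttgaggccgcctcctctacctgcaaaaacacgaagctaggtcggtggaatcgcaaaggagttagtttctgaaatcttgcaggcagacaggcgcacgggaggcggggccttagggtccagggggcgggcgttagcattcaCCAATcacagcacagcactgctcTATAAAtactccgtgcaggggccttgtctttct
Hist3h2a: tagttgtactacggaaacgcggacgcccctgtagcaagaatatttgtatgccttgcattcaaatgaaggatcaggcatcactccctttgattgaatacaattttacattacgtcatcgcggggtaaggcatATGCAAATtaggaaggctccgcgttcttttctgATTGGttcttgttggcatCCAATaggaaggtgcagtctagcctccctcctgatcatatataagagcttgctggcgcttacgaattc

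Near-identical members share sequence, which limits how well reads can be assigned to one of them. The share of a member's 31-base words found in no other gene had a median of 39.0% over the 62 members, from 0 to 100%, and was under 50% for 39 of them. The median was 96.2% for H1, 58.2% for H4, 37.1% for H2B, 36.9% for H3 and 15.6% for H2A genes. Hist2h2aa1, Hist2h2aa2, Hist2h2bb, Hist2h3b and Hist2h3c1 had no word of their own, so their separate values are uncertain. Hist1h1e and Hist1h2be shared words with each other, as did Hist3h2a and its neighbour Trim17. The counting is not stated to use strand, so reads of overlapping genes cannot be told apart. Sums over a class do not depend on how reads were split between its members, but they do depend on reads shared with other genes.

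Depth and identity of the libraries were checked first. Whole reads could be recovered for the Eed table and came to 33269583 to 57063586 per library, while the depth behind the hair cycle table is unknown. The targeted gene, Eed, had normalized counts of 1084, 1249 and 950.2 in control and 933.3, 1361 and 1001 in the libraries labelled Eed iKO, a log2 fold change of -0.0055 ± 0.22 (SE, adjusted p = 0.993, limma). Counts over the whole gene do not show whether its floxed part was deleted, so this level is no check of the labels, and directions below refer to the labels. All 12 bulge markers checked, Cd34, Krt15, Sox9 and Lgr5 among them, were expressed in every library. Krt15 was lower in telogen replicate 1, at 142406, than in the other 5 hair cycle libraries. The summed level of 7 immune markers was 248.1 to 462.4 in control and 382.6 to 794.6 in Eed iKO libraries, and 155.9 to 432.3 in telogen and 133.6 to 149.7 in anagen libraries. Of the 6 of them tested, 2 passed the thresholds in the Eed table, both higher in Eed iKO, and none in the hair cycle table. Their part in the values below was not tested.

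The question in the hair cycle table was how growing and resting HFSCs differ. Most members had a higher mean in anagen. Linker genes Hist1h1a and Hist1h1b and a group of Hist1 H2A and H2B genes, Hist1h2ak and Hist1h2bl among them, were near 0 in telogen and rose in anagen, while Hist3h2a and Hist2h2be were abundant at both stages. Of the 67 members, 9 were listed at 0 in all 6 libraries. Of the other 58, 53 had a higher mean in anagen and 5 in telogen. Another 28 members were listed at 0 in each telogen library but had a value in anagen. Among the 9 at 0 in all 6 libraries were Hist2h2aa1, Hist2h2aa2 and Hist2h3b, which have no word of their own. In the Eed table Hist2h2aa1 had 111.6 to 498.0 and Hist2h3b 14.8 to 114.2, so a listed 0 need not mean that the gene is not expressed.

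Tests were made for the 23 members that passed a filter on low values, with limma on log2(normalized count + 1). Members that passed through their anagen libraries alone had to differ, so counts among the 23 are not a measure of the whole family. Among the 23, 14 passed the thresholds of the methods (log2 fold change over 2 and unadjusted p under 0.05), all higher in anagen, where 3.33% of the 13457 genes tested did so. Most of the 14 were under 10 in every telogen library and were tested through their anagen libraries alone. These were Hist1h1a, Hist1h1b, Hist1h2ak, Hist1h2ap, Hist1h2bb, Hist1h2bg, Hist1h2bl, Hist1h2bn, Hist1h2bq, Hist1h2br and Hist2h2ac. The fold changes and p-values given for them below carry the same limit and are no separate support. At an adjusted p under 0.05, 12 members were called, all higher in anagen, against 7.22% of all genes tested. That count was 6 without anagen replicate 1 and 6 to 14 over the libraries left out in turn, and 13 without telogen replicate 1. The anagen and telogen libraries did not overlap for 17 of the 23, all higher in anagen, against 18.1% of all genes. The median log2 fold change of the 23 was 2.61, beside 0.013 over all genes tested. Without Hist1h1a, Hist1h2ap and Hist1h2bb, which were listed at 0 throughout telogen and have no fold change here, it was 2.17 for the other 20. The 44 members not tested had values of at most 46.5, and 34 of them had a higher mean in anagen and 1 in telogen.

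**Figure D1:**
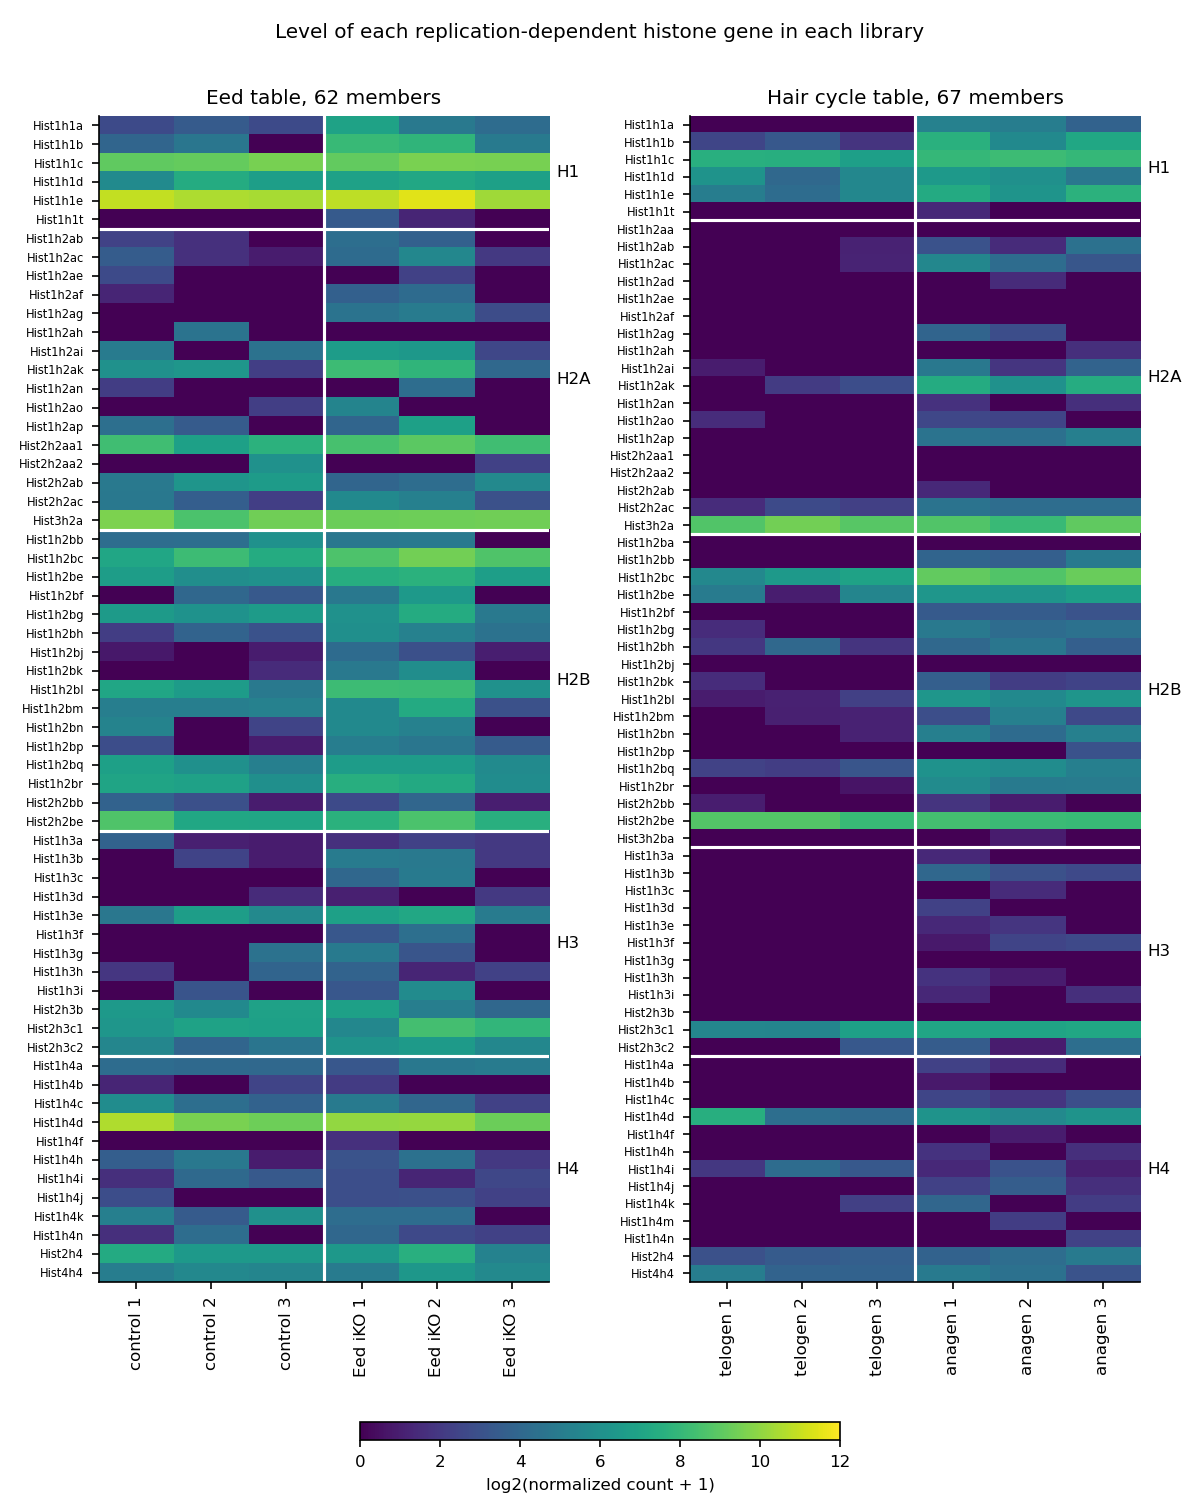
Level of each member in each library, as log2(normalized count + 1), with the Eed table on the left (62 members) and the hair cycle table on the right (67 members), ordered by class. White lines part the classes and the groups. In the hair cycle table most rows are dark (at or near 0) in the 3 telogen libraries and lighter in the 3 anagen libraries, while Hist3h2a and Hist2h2be are bright in all 6.

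The linker histones H1 bind DNA where it enters and leaves the nucleosome. Hist1h1b had normalized counts of 4.74, 8.90 and 2.52 in telogen and 195.4, 50.6 and 140.2 in anagen. Every anagen library was above every telogen library, though anagen replicate 2 was well below the other two, and the log2 fold change was 4.27 ± 0.69 (SE, adjusted p = 0.0031). Hist1h1a had no value in telogen and 37.9, 33.4 and 12.6 in anagen. Hist1h1e had 32.8, 17.8 and 45.5 in telogen and 158.7, 74.1 and 205.7 in anagen. Its groups did not overlap, with a log2 fold change of 2.13 ± 0.54 (adjusted p = 0.028). It was under the fold threshold without telogen replicate 2 or anagen replicate 3, at 1.77 and 1.82. Hist1h1c, the most abundant linker gene in this table, had 187.9, 183.4 and 110.0 in telogen and 257.0, 301.6 and 257.5 in anagen. These groups did not overlap either, but the log2 difference of 0.79 ± 0.32 passed neither threshold (adjusted p = 0.14). Hist1h1d had overlapping values of 15.6 to 71.0 in telogen and 26.0 to 88.2 in anagen.

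Among H2A genes, which together with H2B make the dimers at the outside of the nucleosome, Hist1h2ak had 0, 3.30 and 6.20 in telogen and 166.3, 66.9 and 168.9 in anagen. No libraries of the groups overlapped, and its log2 fold change was 5.31 ± 0.81 (adjusted p = 0.0023). With telogen values this low its size depends on the count added to each value, and it was 6.58 with 0.1 in place of 1. Hist1h2ap, at 0 throughout telogen, had 22.5, 20.3 and 34.7 in anagen. Hist2h2ac had 1.86, 5.57 and 3.77 in telogen and 22.5, 18.6 and 18.4 in anagen. It passed the thresholds of the methods with a log2 fold change of 2.21 ± 0.73 but not the adjusted p, at 0.075. Hist3h2a held 431.2, 689.2 and 464.3 in telogen and 429.4, 282.2 and 529.1 in anagen. Its groups overlapped, with a log2 difference of -0.37 and a 95% interval of -1.03 to 0.30. Because Hist3h2a made up most of the H2A sum, that sum was 435.9, 698.0 and 476.8 in telogen and 743.3, 422.6 and 798.2 in anagen and overlapped too.

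Of the 10 H2B genes tested, 8 passed the thresholds, all higher in anagen, where 3.33% of all genes tested did so. Most of the 8 were tested through their anagen libraries alone, so this count does not rank the classes. Hist1h2bc held 47.9, 90.1 and 118.8 in telogen and 558.8, 432.2 and 604.3 in anagen. The lowest anagen library was above the highest telogen library by several times, with a log2 fold change of 2.70 ± 0.37 (adjusted p = 0.0013), the smallest p of any member. Hist1h2bl had 0.910, 1.11 and 3.77 in telogen and 77.3, 50.2 and 75.3 in anagen (log2 fold change 4.65 ± 0.69, adjusted p = 0.0020). Hist1h2br was listed at 0 in telogen replicates 1 and 2 and had 53.7, 29.4 and 30.5 in anagen. For Hist1h2bn, Hist1h2bq, Hist1h2bg and Hist1h2bb, telogen values ran from 0 to 7.96 and anagen values from 11.3 to 68.3, with no overlap for any of the 4. Adjusted p-values for Hist1h2br, Hist1h2bn, Hist1h2bq and Hist1h2bg, all tested through their anagen libraries alone, ran from 0.0027 to 0.013. Hist1h2bb was listed at 0 throughout telogen. Hist1h2be passed the thresholds of the methods with an adjusted p of 0.12. The 2 tested H2B genes that passed no threshold were Hist1h2bh and Hist2h2be. Hist2h2be had 443.5, 437.9 and 272.1 in telogen and 339.2, 286.7 and 272.0 in anagen, with a log2 difference of -0.33 and a 95% interval of -0.96 to 0.30.

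H3 and H4 form the tetramer at the centre of the nucleosome, and few of their genes had enough signal to test. The only H3 gene tested, Hist2h3c1, had 44.4, 43.4 and 111.4 in telogen and 136.4, 126.0 and 140.8 in anagen. Its groups did not overlap, but its log2 difference of 1.15 ± 0.46 did not pass (adjusted p = 0.13). The next H3 gene by level, Hist2h3c2, had 0 to 8.80 in telogen and 0.887 to 18.9 in anagen and was not tested. Of the other 10 H3 genes, none had a value in telogen and 8 had one in at least 1 anagen library. Among H4 genes, Hist1h4d had 184.0, 18.9 and 16.4 in telogen and 70.6, 49.9 and 71.5 in anagen, so that telogen replicate 1 stood above all anagen libraries. Hist4h4 had overlapping values of 12.7 to 32.9 in telogen and 7.29 to 30.0 in anagen. Hist2h4 had 6.75, 10.0 and 11.4 in telogen and 12.6, 18.7 and 29.3 in anagen, with no overlap and an adjusted p of 0.37.

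Per kilobase of longest annotated transcript, the order of members changed between the stages. In telogen the highest mean normalized counts per kilobase were 246.1 for Hist3h2a, 146.8 for Hist2h2be and 102.8 for Hist1h1c. In anagen they were 460.0 for Hist1h2bc, 341.0 for Hist1h2ak, 192.7 for Hist3h2a and 177.4 for Hist1h2bl. Of these, Hist1h2ak and Hist1h2bl share most of their words with other genes, with 25.6% and 11.4% of their own.

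Summed over all 67 members, the level was 1538, 1577 and 1306 in telogen and 3097, 2259 and 2984 in anagen, a ratio of means of 1.89. The classes differed in this ratio. H1 had a mean of 241.9 ± 48.5 in telogen and 634.6 ± 107.9 in anagen (SD, n = 3), and H2B 512.3 ± 52.9 and 1198 ± 128.1, both without overlap. H3 was 69.4 ± 44.0 in telogen and 163.1 ± 16.9 in anagen, again without overlap. H4 was 113.2 ± 98.2 and 129.6 ± 14.4, with telogen replicate 1 above all others. By cluster, Hist1 went from 458.5 ± 104.3 to 1861 ± 318.6, a ratio of 4.06, while Hist2 was 467.3 ± 51.8 and 485.4 ± 37.0. These sums were not tested. In sorted bulk cells, a higher sum could mean more cells with the transcript or more of it per cell, which cannot be told apart.

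**Figure D2:**
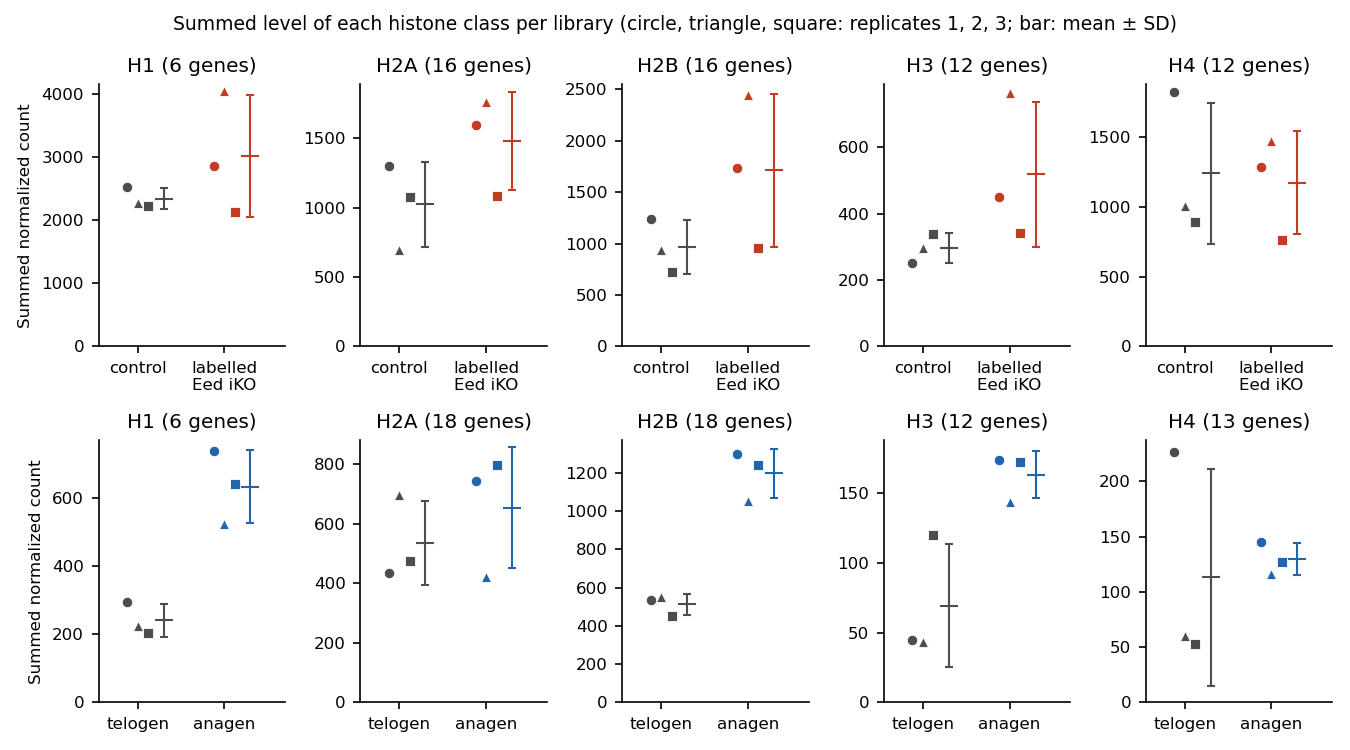
Summed normalized count of each histone class in each library, with control and Eed iKO libraries above and telogen and anagen libraries below. Symbols are replicates and bars are means ± SD (n = 3). In the lower row the anagen libraries lie above the telogen libraries for H1, H2B and H3, and in the upper row Eed iKO replicate 3 lies near the control libraries in each class.

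Transcript ends, which the choice of members did not use, were compared next. The 22 members whose annotated transcripts all end within 100 bases of the stem-loop summed to 5.58, 6.68 and 6.26 in telogen and 130.8, 128.4 and 139.2 in anagen, a ratio of 21.5. The 22 members with a transcript running more than 100 bases past it summed to 1029, 1026 and 882.4 in telogen and 1379, 1102 and 1447 in anagen, a ratio of 1.34. By class, the ratio for the long-transcript members was 2.02 in H1, 3.85 in H2B, 2.17 in H3, 1.05 in H4 and 0.83 in H2A, the class of Hist3h2a. Anagen and telogen libraries did not overlap for either sum of 22 members. Within the long-transcript members they overlapped for H2A and H4. Members with such a long transcript held 65.0 to 67.6% of the family's summed level in telogen and 44.5 to 48.8% in anagen. The 23 members with no annotated stem-loop were in between, with means of 488.3 ± 65.3 and 1338 ± 284.2. Reads from a member's coding sequence count for it whichever end its mRNA had, so these sums describe annotated genes and not which ends were made. The low level of the short-ended members in telogen was not shared by the control libraries of the Eed table. There the 20 members of this kind held 4.87 to 7.70% of the family's summed level. That share was 0.363 to 0.479% in telogen and 4.22 to 5.68% in anagen. The tables were normalized separately, and this difference was not tested.

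**Figure D3:**
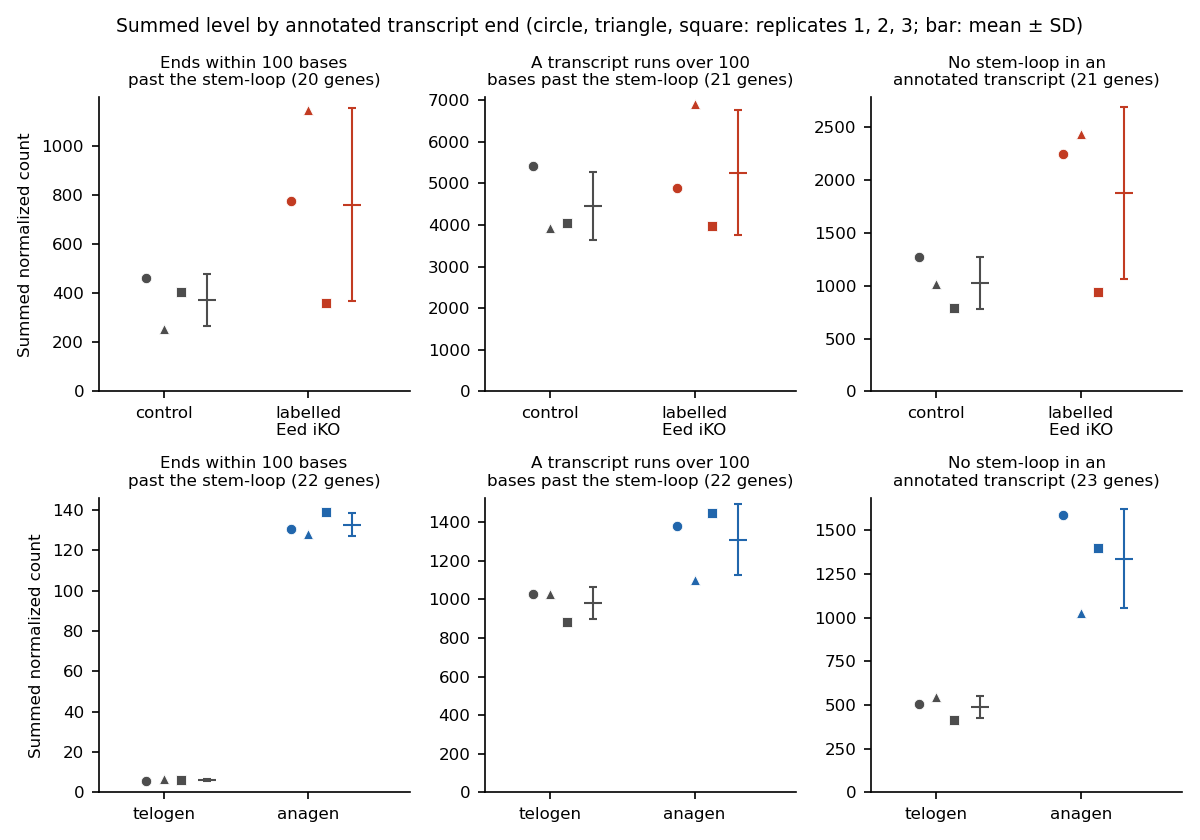
Summed normalized count of members grouped by their annotated transcript ends, for control and Eed iKO libraries (above) and telogen and anagen libraries (below), with replicates as symbols and means ± SD as bars (n = 3). Members ending within 100 bases of the stem-loop sum to at most 6.68 in telogen and at least 128.4 in anagen.

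Genes that act on histone mRNAs and proteins were read from lists fixed with the family. Of 19 genes for histone mRNA transcription and 3′ processing that were tested, 2 passed the thresholds, both higher in anagen, where 3.33% of all genes passed. These were Ccne1 and Ccne2, the E cyclins that drive entry into S phase. Slbp had 629.4, 442.7 and 394.0 in telogen and 1924, 1558 and 1602 in anagen, with no overlap and a log2 fold change of 1.81 ± 0.24 that was under the fold threshold. With Eri1, the exonuclease that trims histone mRNA ends, and both cyclins, Slbp made up the 4 genes of this list called at an adjusted p under 0.05. Npat, the coactivator of histone transcription, had 338.3, 458.6 and 292.5 in telogen and 615.3, 474.1 and 470.9 in anagen (log2 difference 0.53 ± 0.27, adjusted p = 0.22). Of 20 histone chaperone and assembly genes, 9 were called at an adjusted p under 0.05, all higher in anagen, where 7.22% of all genes were called. Asf1b and Chaf1b, both chaperones of newly made H3 and H4, passed the thresholds as well, with log2 fold changes of 4.04 ± 0.66 and 3.53 ± 0.42. Asf1a, the paralogue of Asf1b, was at 312.3 to 672.4 in telogen and 695.3 to 831.8 in anagen and did not pass.

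Replication-independent variants, which are encoded outside the clusters and are polyadenylated, were measured beside the members. Of the 10 tested, 3 passed the thresholds, all higher in anagen, where 3.33% of all genes tested did so. H2afz (H2A.Z) had 1095, 703.9 and 676.6 in telogen and 4756, 2950 and 3033 in anagen. H2afx and Cenpa, the centromeric H3, had log2 fold changes of 2.40 ± 0.61 and 2.76 ± 0.40. H3f3a and H3f3b, which both encode H3.3, had log2 differences of 0.79 ± 0.29 and 0.68 ± 0.21 and did not pass. H1f0, the linker variant known from resting cells, was at 2007 to 2490 in telogen and 2353 to 2690 in anagen.

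Cell cycle genes differed between the stages alongside the members. Of 20 S phase genes, 9 passed the thresholds and 17 were called at an adjusted p under 0.05, all higher in anagen. Of all genes tested, 3.33% and 7.22% did so. Mki67 had 420.5, 430.6 and 276.1 in telogen and 14954, 12975 and 10404 in anagen. The summed level of the 20 genes was 6058 to 7752 in telogen and 33120 to 53025 in anagen. The summed level of 5 melanocyte markers was 81.3 to 159.6 in telogen and 437.0 to 802.8 in anagen, and 1 of the 4 tested passed the thresholds. Fibroblast markers overlapped between the stages, but 2 of the 4 tested passed, both higher in anagen. Matrix and transit amplifying markers did not overlap, with a lower sum in anagen, 553.9 to 771.9, than in telogen, 897.9 to 1016. Of the 6 tested, 1 passed the thresholds and was higher in anagen, while the only 1 at an adjusted p under 0.05 was lower in anagen. The part of these lists in the histone result was not tested.

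The question in the other table was what loss of EED changes in HFSCs. Genotype and RU-486 treatment differed together between its groups, so their parts cannot be told apart. The same linker genes, Hist1h1a and Hist1h1b, were higher in the libraries labelled Eed iKO, together with Hist1h2bh, but most abundant members were at like levels in both groups, and Eed iKO replicate 3 was close to the control libraries for many members. All 62 members had a value in at least 1 library. Means were higher in Eed iKO for 48 and in control for 14. By class, the mean was higher in Eed iKO for 6 of 6 H1, 12 of 16 H2A, 15 of 16 H2B, 10 of 12 H3 and 5 of 12 H4 genes.

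Of the 36 members that passed the filter on low values, 3 passed the thresholds of the methods (log2 fold change over 1.5 and unadjusted p under 0.05), all higher in Eed iKO, where 0.826% of the 15008 genes tested did so. None was called at an adjusted p under 0.05 by limma, as against 0.0267% of all genes, or by edgeR, and 2, Hist1h1b and Hist1h2bc, were by DESeq2, against 5.11% of the 12955 genes it gave an adjusted p. Without control replicate 1, 2 or 3 the thresholds of the methods called 5, 6 and 4 members, all higher in Eed iKO but Hist2h2ab in the first of these. The share of all genes called in these fits is not given here, so the counts cannot be read against it. At an unadjusted p under 0.05, 6 members were called by limma, all higher in Eed iKO, against 8.38% of all genes. For 6 of the 36 all Eed iKO libraries lay above all control libraries, and for none the other way, which held for 10.2% of all genes. The median log2 fold change of the 36 was 0.35, beside -0.0011 over all genes tested. The filter lets in members through their Eed iKO libraries, and all 3 needed those libraries to pass it. Hist1h1a had at most 9.75 in control, Hist1h2bh had 3.47 and 7.25 in control replicates 1 and 3, and Hist1h1b had 0 in control replicate 3. Counts among the 36 are therefore not a measure of the whole family.

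Hist1h1b had 13.9, 24.9 and 0 in control and 269.9, 229.7 and 28.7 in Eed iKO. All Eed iKO libraries were above all control libraries, replicate 3 only just, and the log2 fold change was 4.08 ± 1.26 (SE, adjusted p = 0.18). Hist1h1a had 5.55, 9.75 and 5.44 in control and 118.3, 27.9 and 17.8 in Eed iKO, with a log2 fold change of 2.39 ± 0.90 (adjusted p = 0.25). Hist1h2bh had 3.47, 13.0 and 7.25 in control and 62.4, 37.2 and 21.7 in Eed iKO, with a log2 fold change of 2.25 ± 0.83 (adjusted p = 0.25). In none of these 3 genes did the groups overlap. Hist1h1b stayed past the thresholds whichever library was left out, with its lowest log2 fold change, 2.65, without control replicate 3. Hist1h1a did not pass without control replicate 1, control replicate 3 or Eed iKO replicate 1, with a lowest value of 1.60. Hist1h2bh did not pass without control replicate 1 or without Eed iKO replicate 1 or 2, with a lowest value of 1.82. Hist1h2bc had 138.1, 301.1 and 165.0 in control and 403.2, 685.2 and 415.2 in Eed iKO. Its groups did not overlap, with a log2 difference of 1.35 ± 0.39 that was under the fold threshold (adjusted p = 0.15). It was 1.68, past the threshold, without control replicate 2.

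The most abundant members did not pass. Per kilobase, Hist1h4d and Hist1h1e were the highest in control, at 851.9 and 828.7. Hist1h1e had 1929, 1495 and 1375 in control and 1797, 2861 and 1233 in Eed iKO, with a log2 difference of 0.23 and a 95% interval of -0.39 to 0.84. Hist1h4d had 1495, 760.4 and 652.8 in control and 1069, 1102 and 624.8 in Eed iKO, with a log2 difference of -0.0040 and an interval of -0.75 to 0.74. Groups overlapped for both. Hist1h1c ran from 528.0 to 735.3 in control and from 546.2 to 776.9 in Eed iKO, and Hist3h2a from 385.6 to 784.7 and from 639.8 to 683.1. Hist2h2aa1 had 111.6 to 323.3 and 314.4 to 498.0 (adjusted p = 0.31), but has no word of its own. In Hist2h2be, Hist2h3c1, Hist1h3e and Hist2h4, the groups overlapped as well, with log2 differences from -0.29 to 0.64. Hist1h4k, Hist1h2bb and Hist2h2ab had the lowest log2 differences, -2.02, -1.70 and -1.28, none past the thresholds and all with overlapping groups. Hist1h4k and Hist1h2bb were at 0 in Eed iKO replicate 3.

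**Figure D4:**
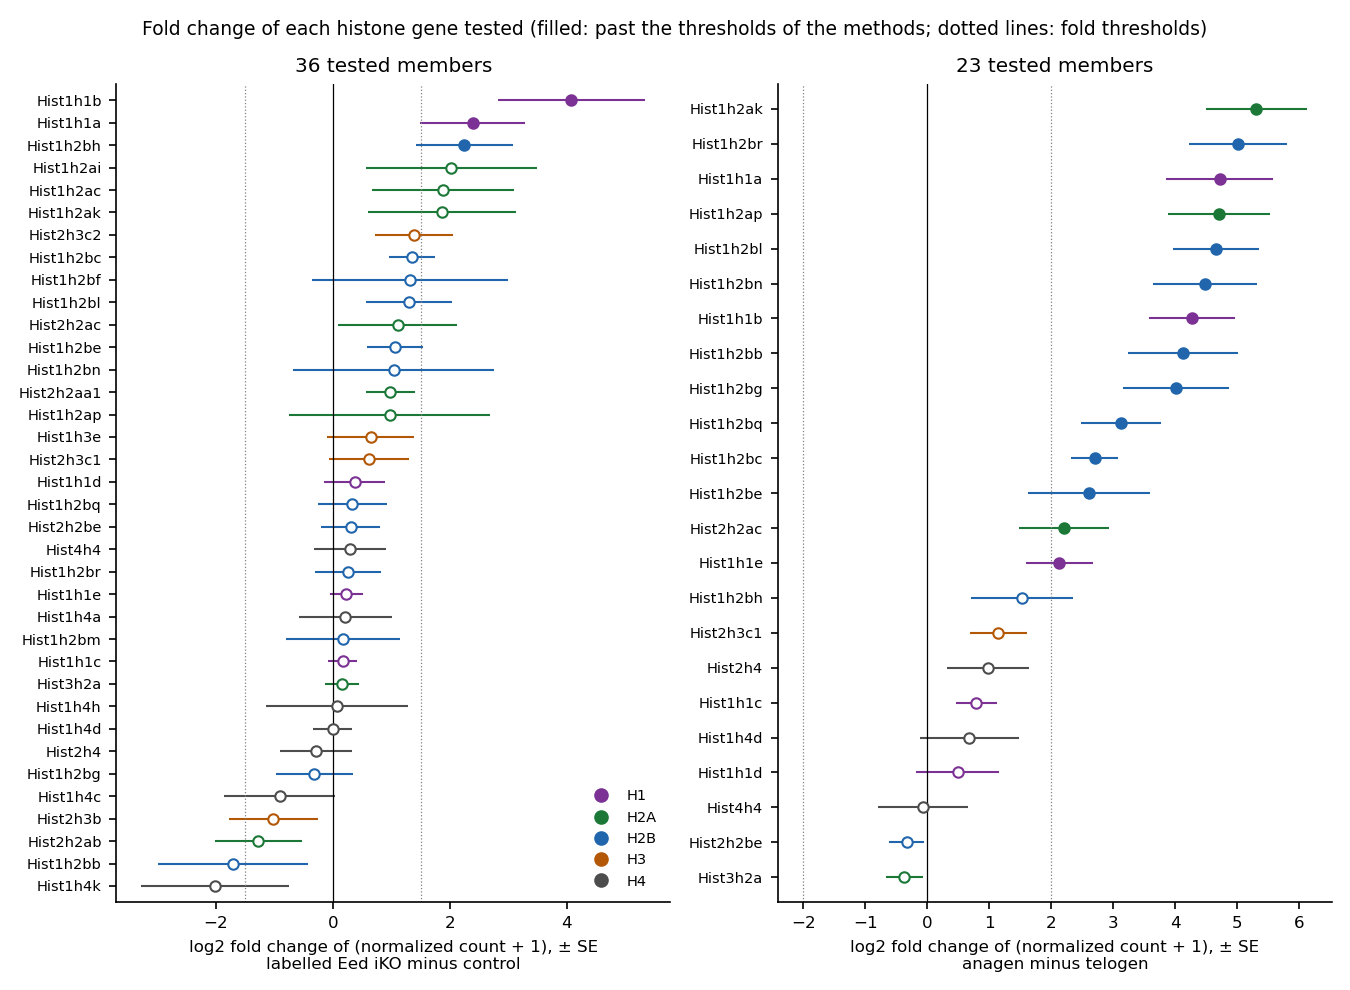
Log2 fold change ± SE of (normalized count + 1) for each tested member, for Eed iKO minus control (left, 36 members) and anagen minus telogen (right, 23 members), coloured by class. Filled points passed the thresholds of the methods, and dotted lines mark the fold thresholds. On the left 3 points are filled, and on the right 14, among them the 3 members at 0 throughout telogen, whose position depends on the added count of 1.

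Of the 26 members not tested, 20 had a higher mean in Eed iKO and 6 in control. Among the 6, Hist1h2ah had 22.7 in control replicate 2 and 0 in every other library. Hist2h2aa2 had 66.2 in control replicate 3, 3.95 in Eed iKO replicate 3 and 0 elsewhere. Several of the 20 were at or near 0 in control. Hist1h2ag had no read in control and 22.6, 30.5 and 5.93 in Eed iKO. The Eed iKO mean of 19.7 was at least 7.3-fold the mean control floor of 3 reads per library, though replicate 3 held only 6 reads. Hist1h2bk had 2 reads in control replicate 3 alone and 28.0, 58.4 and 0 in Eed iKO. Hist1h3c had no control read and was at 15.1 and 29.2 in Eed iKO replicates 1 and 2 and at 0 in replicate 3. Hist1h3f was the same in pattern, with no control read and 8.60, 19.9 and 0. Hist1h3b and Hist1h2af had at most 4.33 in control, at least 11.8 in Eed iKO replicates 1 and 2 and at most 2.97 in replicate 3.

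Eed iKO replicate 3 stood apart from replicates 1 and 2 in this family. The sum over all 62 members was 7143, 5202 and 5242 in control and 7916, 10481 and 5278 in Eed iKO, a ratio of means of 1.35 with overlapping groups. Among the classes, only H3 did not overlap, at 251.8 to 340.0 in control and 341.1 to 763.6 in Eed iKO, and there the gap was about 1 normalized count. Members whose transcripts end within 100 bases of the stem-loop summed to 461.4, 253.5 and 403.5 in control and 776.3, 1146 and 361.8 in Eed iKO. Without Eed iKO replicate 3, 14 of 47 members tested passed the thresholds, all higher in Eed iKO, where 1.55% of 15386 genes did so. They were 2 H1, 5 H2A, 5 H2B and 2 H3 genes and no H4 gene. Replicate 3 was left out because it stood apart in these same members. The count of 14 and its classes follow in part from that choice and are no separate support. With 2 libraries in a group the filter also lets in members with reads in those 2 alone, and none of the 47 had an adjusted p under 0.05.

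Proliferation genes set Eed iKO replicate 3 apart from replicates 1 and 2 as well. Mki67 had 639.0, 2543 and 927.6 in control and 6125, 6301 and 609.0 in Eed iKO, and Top2a had 642.4, 755.0 and 255.7 in control and 3005, 2750 and 299.6 in Eed iKO. Replicate 3 was below all control libraries for Mki67 and within their range for Top2a. The summed level of the 20 S phase genes was 17857 to 21382 in control and 31334, 35087 and 20664 in Eed iKO, and none of the 20 passed the thresholds. Markers of interfollicular and infundibular keratinocytes summed to 10568, 7769 and 39749 in control and 13224, 4474 and 57525 in Eed iKO, so that replicate 3 was the highest in both groups. None of the 5 passed the thresholds. Matrix and transit amplifying markers summed to 7221 to 9736 in control and 5393 to 6415 in Eed iKO, without overlap and with none of 7 past the thresholds, and 1 of 4 melanocyte markers tested passed, higher in Eed iKO. The part of these genes in the histone values was not tested.

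**Figure D5:**
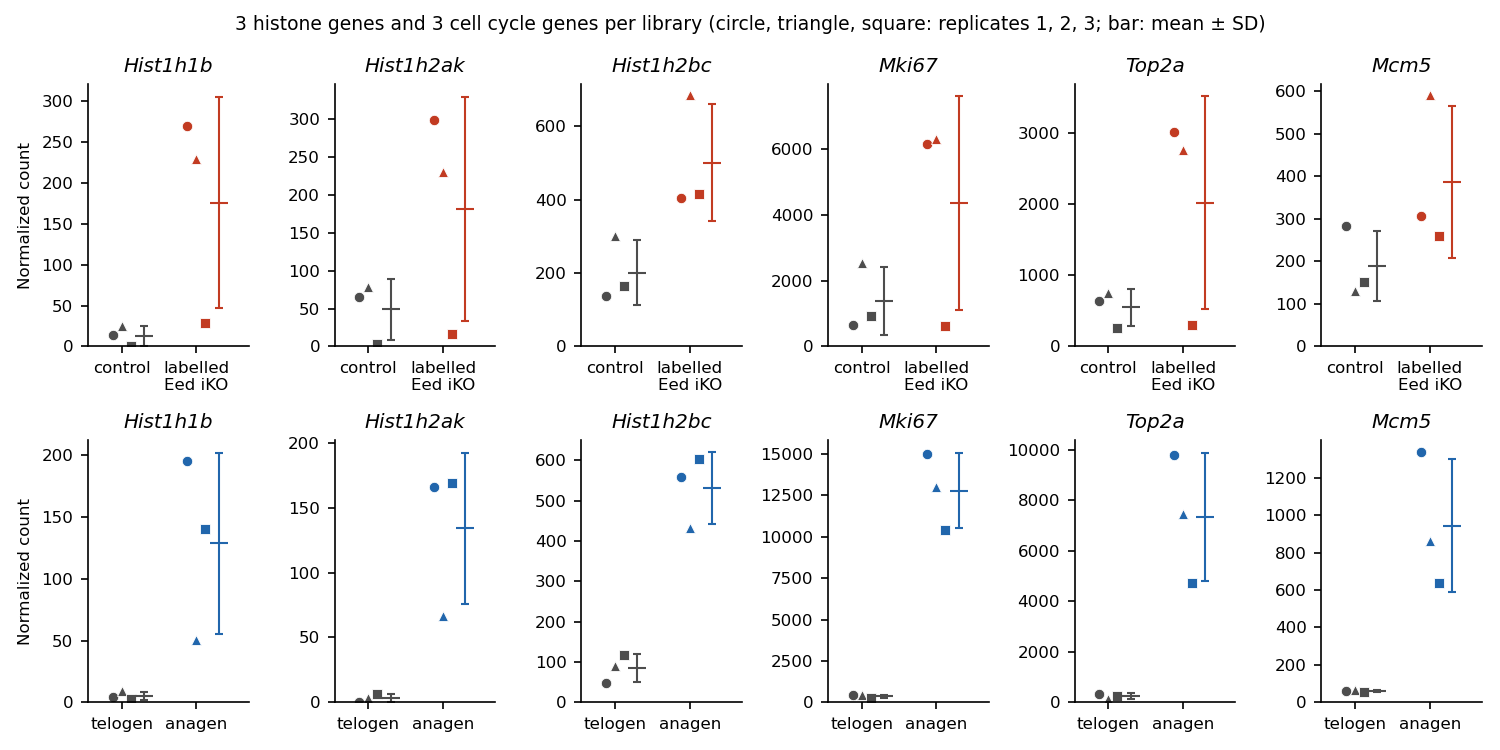
Normalized counts of Hist1h1b, Hist1h2ak and Hist1h2bc beside the cell cycle genes Mki67, Top2a and Mcm5, in control and Eed iKO libraries (above) and telogen and anagen libraries (below), with replicates as symbols and means ± SD as bars (n = 3). Eed iKO replicate 3 (square) has 28.7 for Hist1h1b and 609.0 for Mki67, against at least 229.7 and 6125 in replicates 1 and 2, and every anagen library lies above every telogen library for all 6 genes.

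No gene of the processing, chaperone or variant lists passed the thresholds in the Eed table. Slbp had 1236, 1078 and 1383 in control and 1382, 974.8 and 1400 in Eed iKO, a log2 difference of 0.011 ± 0.21. Mblac1, a histone mRNA endonuclease, had the largest difference of the processing list, -1.81 ± 0.96 (adjusted p = 0.41). Among chaperones, Ssrp1 of the FACT complex had 3035, 4279 and 4204 in control and 6034, 5730 and 5275 in Eed iKO, without overlap (log2 difference 0.58 ± 0.16, adjusted p = 0.15). H2afz had 3267, 3576 and 3778 in control and 7219, 6809 and 4569 in Eed iKO, also without overlap, with a log2 difference of 0.78 ± 0.18 (adjusted p = 0.11).

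The testis-specific members were close to absent from these cells. Hist1h2aa and Hist1h2ba were listed at 0 in all 6 hair cycle libraries. Hist1h1t was listed at 1.57 in anagen replicate 1 and at 0 in the other hair cycle libraries. It had no read in control and 9.68, 1.33 and 0 in the libraries labelled Eed iKO, so that only replicate 1 was above a floor of 3 reads.

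Set side by side, 23 members were tested in both tables, and 16 of them had a log2 difference above 0 in both. Most were above 0 in each comparison taken alone, with 20 of the 23 in anagen. Those below 0 were Hist2h2be, Hist3h2a and Hist4h4 in that comparison, and Hist1h2bb, Hist1h2bg, Hist1h4d and Hist2h4 in the Eed iKO comparison. The count of 16 therefore does not show that the comparisons go together. Hist1h1a and Hist1h1b passed the thresholds in both comparisons, which is 66.7% of the 3 Eed iKO calls and 14.3% of the 14 anagen calls. Of all 23, 60.9% passed in anagen, so the first of these shares is near that of the members at large. Hist1h2bh passed in Eed iKO alone and had a log2 difference of 1.53 ± 0.83 in anagen. Hist1h2ak, which passed in anagen alone, had 65.2, 78.0 and 3.63 in control and 298.9, 229.7 and 15.8 in Eed iKO, with overlapping groups. Hist1h2br, at 126.3, 117.0 and 62.6 in control and 55.4 to 183.9 in Eed iKO, had a log2 difference of 0.26 ± 0.57 there. In telogen it was at 0, 0 and 0.544, so its log2 fold change in anagen, 5.02 ± 0.79, depends on the count added and was 7.62 with 0.1 added. The tables were normalized separately and the difference between the comparisons was not tested.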

How the data were processed

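RNA-seq was performed on 12 libraries of sorted HFSCs, 3 in each of 4 groups taken from the sample labels. Per the study, the 3 libraries of each group in the Eed comparison were biological replicates from at least 2 litters, and cells of each hair cycle stage came from 6 animals. How animals or litters fell into libraries is not given in the sources used here, so p-values measure the spread between libraries. The authors aligned reads to mouse transcripts of Gencode vM20 with kallisto (0.42.5) and normalized counts per gene with DESeq2 (3.11 in the submitters' processing notes). The deposited values are a signal, normalized counts, for each library. Of the values of the Eed table, 100% were whole multiples of 1 constant per library (tolerance 0.1 reads), which gave whole reads. In the hair cycle table it was not, so its depth is unknown. Both tables were normalized separately and were tested apart. The authors' own fold changes and p-values in these tables were not used.

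Values were compared as log2(normalized count + 1) with limma 3.58.1 (R 4.3.3), with an intensity trend, after filterByExpr at a count minimum of 10, and p-values were adjusted by Benjamini-Hochberg over all genes tested. The thresholds were a log2 fold change over 1.5 (Eed table) or 2 (hair cycle table) with an unadjusted p under 0.05. The limma fit was tested on simulated data. EdgeR 4.0.16 and DESeq2 1.42.0 on the recovered reads, TMM scaling, a pseudocount of 0.1, no filter, no trend, a replicate block and leaving out each library were alternatives. Floors of 3 reads cover counting error only.

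Identifiers of 17879 of 17885 genes in the Eed table and all 21915 in the hair cycle table matched GENCODE vM21 (GRCm38), from which transcripts, stem-loops and 31-base words were read. Members and gene lists were chosen with earlier results of these data known. Named genes were the members past the thresholds, the most abundant pair of each class and the members with the highest and lowest fold changes. Others named were chosen after their values were seen.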

Additional observations from a re-analysis of the deposited data

How the results depend on the processing

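In the hair cycle table every member past the thresholds was higher in anagen under all 11 alternatives, and their number stayed between 13 and 16 except without the filter on low values, where it was 24 of 58. The number at an adjusted p under 0.05 was 6 to 14 with single libraries left out, lowest without anagen replicate 1. The median log2 fold change was 1.21 without the filter, which adds members near 0, and 2.34 to 3.0 with libraries left out, lowest without telogen replicate 1 and highest without telogen replicate 3. The log2 ratio of the summed level was 0.92, and 1.32 without Hist3h2a. Without the filter 8 members of the Eed table passed the thresholds, and 2 to 14 with libraries left out, highest without Eed iKO replicate 3, where the median log2 fold change was 1.35. Its lowest value, 0.17, was without Eed iKO replicate 2. The share of all genes past the thresholds under the alternatives is not given here for either table, except without Eed iKO replicate 3. There it was 1.55%, counting genes higher in Eed iKO. The other counts of members past the thresholds cannot be read against all genes. The counts at an adjusted p under 0.05 in that table were 0 by limma, 0 by edgeR, 2 by DESeq2 and 0 whichever library was left out. Over all genes these counts were 4 by limma, 5 by edgeR and 662 by DESeq2.

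The correlations of same-numbered libraries over genes were 0.039, 0.068 and 0.19 in the Eed table and -0.071 to -0.029 in the hair cycle table. Since not every one was over 0.1, the numbers were not taken as pairs. With the replicate block, 1 member of the Eed table, Hist1h1b, had an adjusted p under 0.05 and 4 passed the thresholds, and the 2 counts for anagen, 12 and 14, were as without it. Replicates 1 and 3 of the Eed table, but no replicate of the hair cycle table, correlated best with their own number.

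Some members that passed no threshold changed sign with a library left out. In the Eed table the ranges were -0.088 to 0.52 for Hist1h1e, -0.14 to 0.37 for Hist3h2a, -0.032 to 0.83 for Hist2h2be, -0.24 to 0.36 for Hist1h4d (0.26 without Eed iKO replicate 3) and -0.86 to 0.26 for Hist2h4. In the hair cycle table Hist4h4 ran from -0.46 to 0.49. The cause was not tested. Depth limits members near 0, and shared sequence limits single members more than class sums.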
